A study of Mus musculus with 4 samples.

Results

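Histones are the proteins that package DNA into nucleosomes, and the values analysed here are the RNA levels of the histone genes in mouse hematopoietic stem cells (HSCs) with and without Id2, which encodes an inhibitor of DNA binding. Members were all rows whose symbol starts with Hist1h, Hist2h, Hist3h, Hist4h, H2af, H3f3 or H1f. They came to 56 of the 19354 rows, of which 42 were genes of the replication-dependent clusters, 10 were protein-coding variants and 4 were antisense or pseudogene rows of the H3f3 family. The annotation used here holds 91 genes with such symbols. A mean of at least 1 CPM (counts-per-million, a read count scaled by the depth of its library) over the libraries was reached by 38 of the 56 rows, made up of 26 replication-dependent rows, all 10 variants and 2 of the other rows. All 4 libraries were at or above 1 CPM in 32 rows, and at least 1 library was in 43.

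HSCs were sorted as LSK FLT3- CD48- CD150+ cells from bone marrow of Mx1-Cre Id2+/+ mice (14 animals) and Mx1-Cre Id2fl/fl mice (15 animals), all aged 8 to 16 weeks and all treated with pIpC 2 weeks earlier. In this model pIpC induces an interferon response that switches on the Mx1 promoter, so that Cre removes the floxed Id2 in hematopoietic cells and in other interferon-responsive tissues, and the controls carry Cre and pIpC too. Cells were pooled in 2 experiments and gave 2 RNA libraries for each genotype, called Id2+/+ and Id2Δ/Δ, and the labels do not say which experiment or which animals a library came from. Differences between libraries of 1 genotype may therefore be technical.

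Replication-dependent histone genes sit in clusters, have no introns as a rule, and supply the bulk of new H1, H2A, H2B, H3 and H4 while DNA is copied. Their mRNAs are best known for ending in a conserved stem-loop in place of a poly(A) tail. Variant genes lie apart, carry polyadenylated mRNAs and are expressed also outside S phase, and adult HSCs are known as mostly quiescent cells.

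The stem-loop sequences are shown because they set the cluster genes apart from the variants and from each other. The search covered the bases after the stop codon of the gene's transcripts for 16 bases made of a 6-base stem that opens with GG, a 4-base loop that opens with TT, and the exact inverted repeat of the stem. Each line gives up to 5 bases on either side, with T for U, in the direction of the mRNA, and capitals mark the stem-loop.
Hist1h1c (chr13:23739507-23739532, plus strand): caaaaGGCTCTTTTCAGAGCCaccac
Hist1h2ae (chr13:23570663-23570688, minus strand): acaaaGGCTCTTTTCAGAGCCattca
Hist1h2bg (chr13:23571838-23571863, plus strand): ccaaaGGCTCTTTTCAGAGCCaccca
Hist1h3e (chr13:23561898-23561923, minus strand): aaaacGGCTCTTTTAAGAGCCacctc
Hist1h4d (chr13:23581945-23581970, plus strand): ccaaaGGCCCTTTTCAGGGCCactac
Hist2h4 (chr3:96262934-96262959, minus strand): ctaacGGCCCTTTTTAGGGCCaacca
H2afx (chr9:44335235-44335260, plus strand): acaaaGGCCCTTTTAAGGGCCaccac
Positions are those of GENCODE M21 on GRCm38, and all lie in the 3′ untranslated region.

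Such a stem-loop was found in 31 of the 42 replication-dependent rows and in 1 of the 10 variants, H2afx, which encodes the H2A.X that is phosphorylated at DNA breaks. Over the 13498 protein-coding genes of the table it was found in 78 genes, or 0.578%, the members included. The stem was GGCCCT in 6 of 6 H4 genes and GGCTCT in each of the 25 H1, H2A, H2B and H3 cluster genes that had one. H2afx carried the stem of the H4 genes. The most frequent form, that of Hist1h1c, was shared by 20 genes, namely 3 H1, 8 H2A, 5 H2B and 4 H3 genes. An AATAAA hexamer, the usual poly(A) signal, stood within the last 50 bases of the transcript in 9 of 10 variants and in 8 of 42 replication-dependent rows. A match, or its absence, is a feature of the annotated transcript and not a measurement in these cells.

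Depth, estimated from the low values, was 14200000 and 15700000 reads for the control pair and 17800000 and 18800000 reads for the Id2Δ/Δ pair, so that 3 reads correspond to between 0.159 and 0.211 CPM. Id2 itself was read 93 and 98 times in the controls and 0 times in either Id2Δ/Δ library. Id2Δ/Δ replicate 1 stood apart in having 606 genes at 0 reads, against 170 to 326 in the others. All 8 listed HSC markers were at or above 1 CPM, and their summed level was 4372 to 4457 CPM in Id2+/+ and 3033 to 3586 CPM in Id2Δ/Δ libraries, a shift whose part in the histone values was not tested. The summed levels of neutrophil, erythroid, B-cell, T-cell and macrophage markers overlapped between genotypes.

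Cluster genes had far lower values than the variants in these libraries. The median over rows of the mean level was 1.51 CPM for the 42 replication-dependent rows, with a range of 0.296 to 40.8 CPM, and 150.4 CPM for the 10 variants, with a range of 6.64 to 1640 CPM. Per kilobase of the longest annotated transcript, the medians were 2.21 and 77.7 CPM per kilobase. This scale depends on the annotated length, which for Hist1h1d is 7425 bases, 4884 of them past the stem-loop. The variant H3f3b, which encodes H3.3, led at 652 CPM per kilobase, followed by the H2A.Z gene H2afz at 284 and the macroH2A1 gene H2afy at 120 CPM per kilobase. Among cluster genes the highest were the H2B genes Hist1h2bc at 33.5 and Hist1h2bg at 33.1 CPM per kilobase, followed by the H2A gene Hist1h2ae at 29.3 CPM per kilobase. These neighbours in the order lie close together, and the libraries of Hist1h2bc and Hist1h2bg themselves spread by more than that gap.

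**Figure D1:**
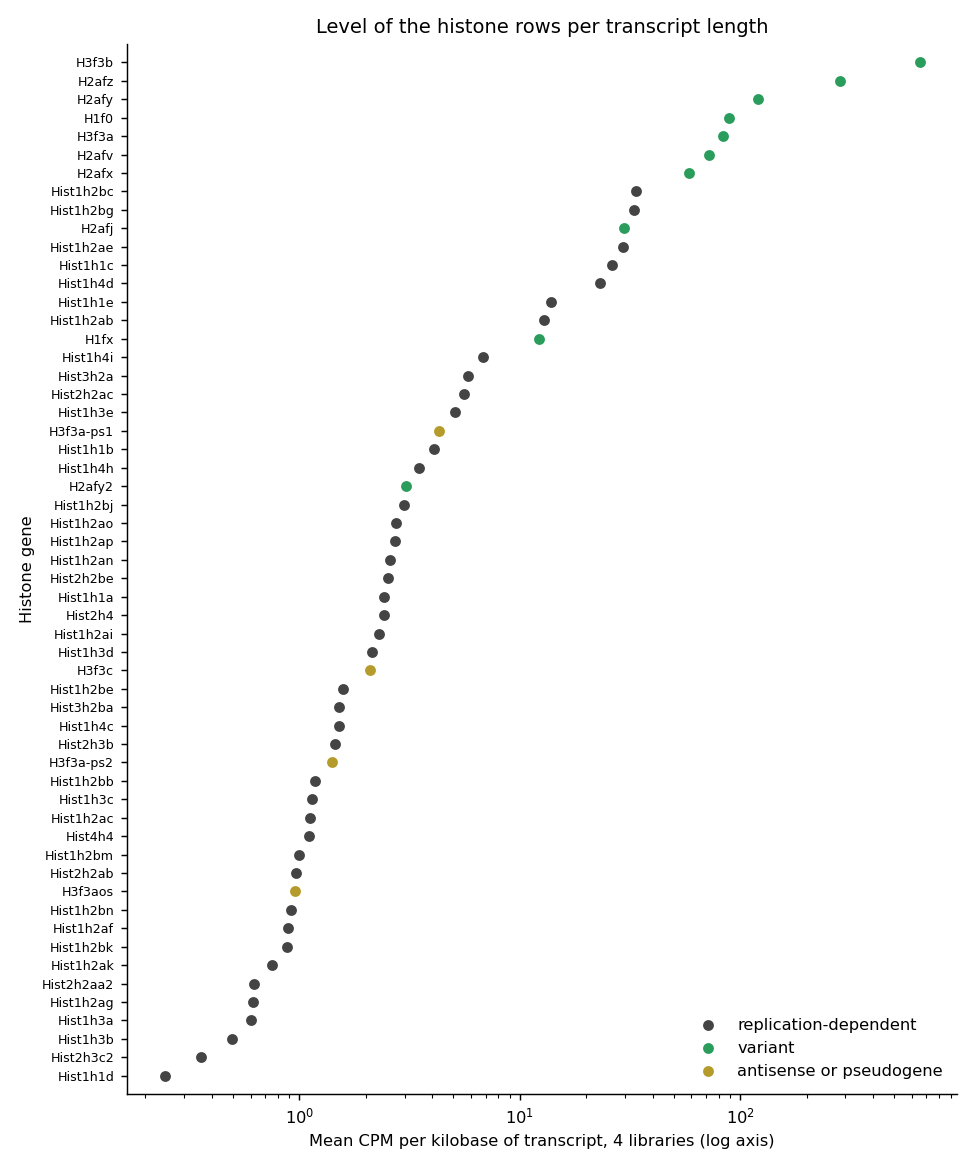
Each point is 1 histone row, placed by its mean CPM per kilobase of transcript over 4 libraries (log axis), with classes in colours. The 7 highest rows are variants, from H3f3b at 652 to H2afx at 58.5 CPM per kilobase, and 7 cluster genes lie above 10 CPM per kilobase.

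Levels of cluster genes were next set beside their annotated 3′ ends. In 17 replication-dependent rows the transcript ran more than 100 bases past the stem-loop, and their median level was 3.96 CPM, or 2.42 CPM per kilobase, with 15 rows at or above 1 CPM. In 14 rows it ended within 100 bases of the stem-loop, and their median was 0.660 CPM, or 1.16 CPM per kilobase, with 6 rows at or above 1 CPM. The 11 rows without a stem-loop in the annotated transcript had a median of 0.900 CPM, or 2.29 CPM per kilobase, with 5 rows at or above 1 CPM. Some of these transcripts are annotated short, as in Hist1h2bn with 381 bases, and the search could not see past their ends. This grouping was chosen after the levels were seen and is a description. The groups also differed in how much of a transcript's sequence occurs in other genes. The median share was 22.1% in the 17 rows running past the stem-loop and 58.7% in the 14 rows ending near it. In the 11 rows without a stem-loop it was 52.3%. How reads of such sequence were assigned is not given, and the part of shared sequence in these levels was not tested. Whether the libraries were made from poly(A)-selected RNA is not given in the sources used here, and its part in these levels was not tested.

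Replication-dependent rows were mostly higher in Id2Δ/Δ than in Id2+/+ HSCs, without a gene passing the test. Of the 42 rows, 36 had a higher mean log2 CPM in Id2Δ/Δ and 6 a lower one, and the median log2 fold change was 0.51. Over all 19354 rows 52.3% were higher. In bulk RNA, more cells in S phase and more histone RNA in each such cell cannot be told apart. Both Id2Δ/Δ libraries lay above both Id2+/+ libraries in 16 of the 42 rows, against 18.9% of all rows, and both lay below in 0 rows, against 15.8% of all rows. The lowest of the 4 values was that of Id2+/+ replicate 1 in 26 rows and that of Id2+/+ replicate 2 in 11 rows. The highest value was that of Id2Δ/Δ replicate 2 in 21 rows and that of Id2Δ/Δ replicate 1 in 13 rows. Tied values were counted for the first library only, controls first, as in Hist1h2bj for the lowest and Hist1h3a for the highest.

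Leaving out 1 library at a time kept between 32 and 39 of the 42 rows higher in Id2Δ/Δ. The median log2 fold change went to 0.27 without Id2+/+ replicate 1 and to 0.73 without Id2+/+ replicate 2, and was 0.55 without Id2Δ/Δ replicate 1 and 0.53 without Id2Δ/Δ replicate 2. Without Id2+/+ replicate 1 the median was thus lower by more than 1.5 times. It also depends on low rows, since for the tested rows it was 0.48 as deposited and 0.17 with a pseudocount of 5 CPM, beside 0.14 for the variants, and 0.23 in the 7 rows with a mean of at least 10 CPM, of which 5 were higher. Taken as deviations from each gene's mean, the rows had a median of -0.43 in Id2+/+ replicate 1, -0.10 in Id2+/+ replicate 2, 0.24 in Id2Δ/Δ replicate 1 and 0.34 in Id2Δ/Δ replicate 2.

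Variants differed by small amounts between genotypes, mostly in the same direction as the cluster genes. In 8 of 10 the mean was higher in Id2Δ/Δ, against 51.7% of the 15895 genes tested, and in 5 of 10 both Id2Δ/Δ libraries lay above both Id2+/+ libraries, against 19.0%. Their median log2 fold change was 0.15, beside 0.01 over all genes tested. Libraries of 1 genotype differed by a median of 0.07 (Id2+/+) and 0.08 (Id2Δ/Δ) on the log2 scale for a variant, and by 0.56 and 0.38 for a replication-dependent row. Cluster genes were thus the more loosely measured class, with 16 of their 42 rows under a mean of 1 CPM. Whether the classes differ from each other in their response was not tested.

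**Figure D2:**
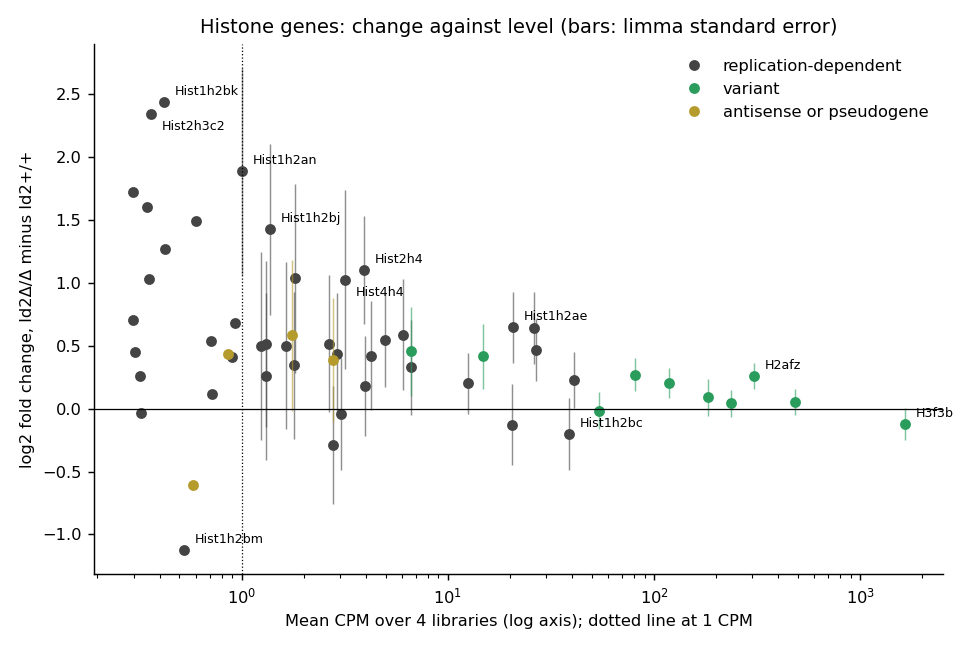
Each point is 1 histone row, with its mean CPM on the x axis (log axis) and its log2 fold change, Id2Δ/Δ minus Id2+/+, on the y axis, and bars of 1 limma standard error for rows at or above 1 CPM. Cluster genes lie above 0 in 36 of 42 rows and scatter widely below 10 CPM, whereas the 10 variants lie between -0.12 and 0.45.

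As a sum, the replication-dependent rows gave 203 and 241 CPM in Id2+/+ replicates 1 and 2, and 265 and 289 CPM in Id2Δ/Δ replicates 1 and 2. The genotypes did not overlap, and the ratio of means was 1.25. Variants summed to 3144 and 3093 CPM in Id2+/+ and to 2955 and 3289 CPM in Id2Δ/Δ libraries, a ratio of 1.00 with overlapping genotypes. H3f3b alone gave 1701 and 1701 CPM in Id2+/+ and 1374 and 1782 CPM in Id2Δ/Δ libraries. The variant sum, its overlap and the shares that follow therefore lean on this 1 gene. Cluster genes thus made up 6.08% and 7.24% of the CPM of both classes in Id2+/+ libraries, and 8.24% and 8.07% in Id2Δ/Δ libraries.

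By summed level, the histone types differed in the order of their libraries. H4, a core histone with no variant gene among the rows, summed over 6 genes to 28.1 and 35.4 CPM in Id2+/+ libraries and to 56.3 and 44.8 CPM in Id2Δ/Δ libraries, a ratio of 1.59, and 6 of 6 genes were higher. H2A summed over 14 genes to 39.3 and 45.9 CPM in Id2+/+ and to 66.6 and 52.5 CPM in Id2Δ/Δ libraries, a ratio of 1.40, and 12 genes were higher. In both types Id2Δ/Δ replicate 1 had the highest sum, and the genotypes did not overlap. In H4 the lead of Id2Δ/Δ replicate 1 leans on Hist1h4d. That gene gave 16.5 and 24.5 CPM in Id2+/+ and 38.8 and 25.1 CPM in Id2Δ/Δ libraries. As a median deviation from each gene's mean, the H4 rows had 0.34 in Id2Δ/Δ replicate 1 and 0.49 in Id2Δ/Δ replicate 2.

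The H2B rows, whose product pairs with H2A in the nucleosome, had a median log2 fold change of 0.50, beside 0.55 for H2A and 0.59 for H4, but another order of summed levels. They summed over 10 genes to 69.5 and 79.1 CPM in Id2+/+ libraries and to 56.0 and 91.5 CPM in Id2Δ/Δ libraries, a ratio of 0.992, and 7 genes were higher. Here Id2Δ/Δ replicate 1 was the lowest library and Id2Δ/Δ replicate 2 the highest, as in the abundant Hist1h2bc and Hist1h2bg. Hist1h2bc gave 35.4 and 46.3 CPM in Id2+/+ and 26.4 and 47.0 CPM in Id2Δ/Δ libraries. Hist1h2bg gave 20.1 and 21.5 CPM against 13.7 and 26.5 CPM, so the H2B sums and their order lean on these genes. As a median deviation from each gene's mean, the H2B rows had -0.10 and -0.04 in Id2+/+ and 0.29 and 0.36 in Id2Δ/Δ libraries. Linker histone H1 summed over 5 genes to 57.6 and 74.1 CPM in Id2+/+ and to 76.8 and 88.0 CPM in Id2Δ/Δ libraries, a ratio of 1.25. H3 was the lowest type, with 7 of 7 genes higher and sums of 8.86 and 7.01 CPM in Id2+/+ against 9.67 and 11.9 CPM in Id2Δ/Δ libraries. In H1 and H3, too, the summed levels of the genotypes did not overlap. Whether the types differ from each other in their response was not tested.

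**Figure D3:**
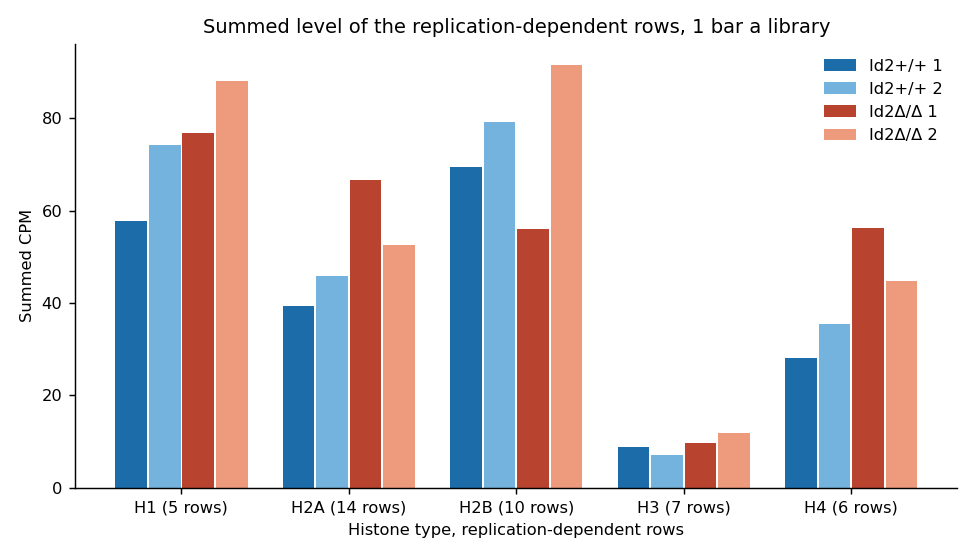
Bars show the summed CPM of the replication-dependent rows of each histone type, with 1 bar for each library. In H1, H2A, H3 and H4 both Id2Δ/Δ bars stand above both Id2+/+ bars. In H2B the bar of Id2Δ/Δ replicate 1, at 56.0 CPM, is the lowest of 4.

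No histone gene passed the threshold of an adjusted p-value under 0.05. In the limma fit over 15895 genes, 0% of genes passed it, and the smallest adjusted p-value of any gene was 0.910. That was also the value for the deleted gene Id2, with an unadjusted p-value of 0.000181, so failing this threshold with 2 libraries a group does not show that a gene was unchanged. At an unadjusted p-value under 0.05, 742 genes or 4.67% stood out, 1.72% of all genes as higher and 2.95% as lower in Id2Δ/Δ. Among them were 2 of the 38 tested histone rows, Hist2h4 and H2afz, both higher. A count of 2 is near what the share over all genes would give.

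Hist2h4, an H4 gene of the Hist2 cluster at chr3:96261682-96263311 on the minus strand, had 33 and 43 reads in Id2+/+ and 79 and 113 reads in Id2Δ/Δ libraries. On the log2 CPM scale these are 1.18 and 1.44 against 2.15 and 2.66. Both Id2Δ/Δ libraries were above both controls, and the log2 fold change of 1.10 (SE 0.43) had an unadjusted p-value of 0.035 and an adjusted p-value of 0.910 in limma. Only 1.01% of its 50-base windows occur in another annotated gene, so few of its reads could belong to other H4 genes.

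H2afz, the H2A.Z gene at chr3:137864487-137866922 on the plus strand, stood at 8.07 and 8.16 log2 CPM in Id2+/+ and at 8.38 and 8.36 log2 CPM in Id2Δ/Δ libraries. The groups did not overlap, although the difference was small, with a log2 fold change of 0.26 (SE 0.10), an unadjusted p-value of 0.039 and an adjusted p-value of 0.910 in limma. Of its 50-base windows, 33.2% are shared with other genes, Gm8203 and Gm13007 among them. H2afv, the second H2A.Z gene, differed by 0.20 in log2 (SE 0.12), also without overlap.

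The other large differences sat at few reads. Hist1h2an, an H2A gene at chr13:21786826-21787218, had 6 and 8 reads in Id2+/+ and 31 and 24 reads in Id2Δ/Δ libraries, a log2 fold change of 1.89 (SE 0.82). Its mean of 1.01 CPM put it just inside the filter, and 85.8% of its 50-base windows occur in other H2A genes, so how its reads were shared out is uncertain. Hist1h2bj, an H2B gene at chr13:22043214-22043676, had 11 and 12 reads in Id2+/+ and 30 and 40 reads in Id2Δ/Δ libraries, a log2 fold change of 1.42 (SE 0.68), and shares 59.4% of its windows. Neither passed the test, with adjusted p-values of 0.910 in limma.

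The 16 cluster rows under a mean of 1 CPM rest on 0 to 23 reads a library, and they were chosen for naming after their values were seen. Hist1h2bk, an H2B gene, had 0 and 7 reads in Id2+/+ and 10 and 10 reads in Id2Δ/Δ libraries. Hist2h3c2, an H3 gene, had 2 and 3 reads in Id2+/+ and 8 and 11 reads in Id2Δ/Δ libraries. The H2B gene Hist1h2bm went the other way, with 7 and 15 reads against 7 and 3 reads. At this depth such differences are a few reads, and no fold is given for them.

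The 5 most abundant cluster genes fell into differing library orders. Hist1h4d, an H4 gene at chr13:23581598-23582735, had 4.04 and 4.61 log2 CPM in Id2+/+ and 5.28 and 4.65 log2 CPM in Id2Δ/Δ libraries, a log2 fold change of 0.64 (SE 0.29). Hist1h2ae, at chr13:23570517-23571220, had 3.75 and 4.22 log2 CPM in Id2+/+ and 4.93 and 4.33 log2 CPM in Id2Δ/Δ libraries, a log2 fold change of 0.65 (SE 0.28). Hist1h1e, a linker histone gene at chr13:23620629-23622558, had 4.20 and 4.74 log2 CPM in Id2+/+ and 5.09 and 4.77 log2 CPM in Id2Δ/Δ libraries, a log2 fold change of 0.47 (SE 0.24). All 3 were highest in Id2Δ/Δ replicate 1 and lowest in Id2+/+ replicate 1, while the second library of each genotype differed by little. Hist1h1e overlaps the longest Hist1h2be transcript on the same strand, and reads from the overlap cannot be told apart.

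Hist1h2bc, the most abundant H2B gene, at chr13:23684199-23692908, had 5.14 and 5.53 log2 CPM in Id2+/+ and 4.72 and 5.55 log2 CPM in Id2Δ/Δ libraries, a log2 fold change of -0.20 (SE 0.29). Hist1h1c, the most abundant cluster gene by CPM, at chr13:23738808-23740367, had 5.08 and 5.35 log2 CPM in Id2+/+ and 5.17 and 5.72 log2 CPM in Id2Δ/Δ libraries, a log2 fold change of 0.23 (SE 0.22). In both genes the genotypes overlapped and Id2Δ/Δ replicate 2 was the highest library. The adjusted p-values of these 5 genes in limma were between 0.910 and 0.933.

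Of the 5 most abundant variants, all but H2afz, described above, had differences within 1 standard error. H3f3b, at chr11:116021912-116027962, had 10.73 and 10.73 log2 CPM in Id2+/+ and 10.42 and 10.80 log2 CPM in Id2Δ/Δ libraries, a log2 fold change of -0.12 (SE 0.13) with a 95% interval from -0.42 to 0.18. H3f3a, the second H3.3 gene, at chr1:180800832-180813943, had 7.86 and 7.86 log2 CPM in Id2+/+ and 7.94 and 7.87 log2 CPM in Id2Δ/Δ libraries, a difference of 0.04 (SE 0.11). H2afy, at chr13:56073619-56136361, had 8.90 and 8.87 log2 CPM in Id2+/+ and 9.01 and 8.87 log2 CPM in Id2Δ/Δ libraries, a difference of 0.05 (SE 0.10). For H3f3b the deviating library was again Id2Δ/Δ replicate 1, and the other 3 agree within 0.1.

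H1f0, which encodes the linker histone H1.0 of quiescent and differentiated cells, at chr15:79028450-79030504, had 7.65 and 7.28 log2 CPM in Id2+/+ and 7.60 and 7.51 log2 CPM in Id2Δ/Δ libraries, a difference of 0.09 (SE 0.15). Its genotypes overlapped. H2afx, at chr9:44334694-44336077, had 6.20 and 6.20 log2 CPM in Id2+/+ and 6.45 and 6.49 log2 CPM in Id2Δ/Δ libraries, a difference of 0.27 (SE 0.13) without overlap and with an adjusted p-value of 0.910 in limma. H1fx differed by 0.41 (SE 0.26), H2afy2 by 0.45 (SE 0.36) and H2afj by -0.02 (SE 0.15).

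**Figure D4:**
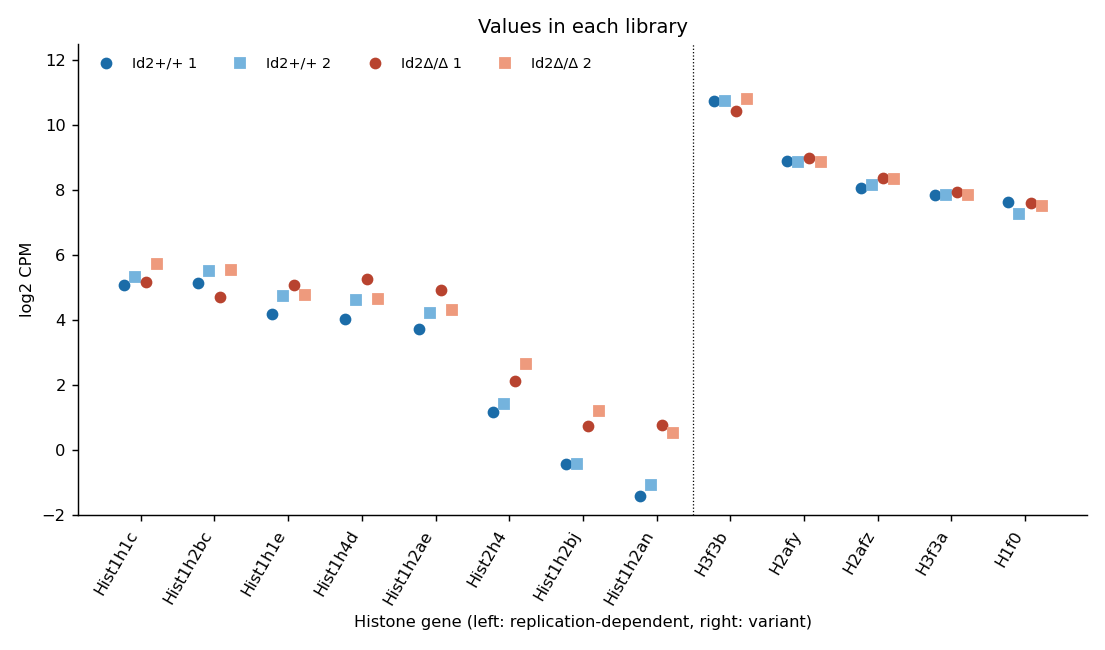
Points give the log2 CPM of each library for the cluster genes (left of the dotted line) and the variants (right) described by library, with colours for genotype and shapes for replicate. Hist2h4, Hist1h2bj and Hist1h2an show both Id2Δ/Δ points above both Id2+/+ points, and among the variants H2afz shows the same with a smaller gap. Hist1h1e, Hist1h4d, Hist1h2ae and the variant H3f3a also do so, by narrow gaps.

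The 4 antisense or pseudogene rows were low. H3f3a-ps1, a processed pseudogene of H3f3a, had 16 and 28 reads in Id2+/+ and 34 and 39 reads in Id2Δ/Δ libraries. The antisense row H3f3aos had 45 and 30 reads in Id2+/+ and 53 and 56 reads in Id2Δ/Δ libraries, and strand use is not given in the sources used here, so reads from the stretch where it overlaps H3f3a cannot be told apart. Over these 4 rows 3 were higher in Id2Δ/Δ, with log2 fold changes from -0.61 to 0.58.

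Short transcripts as a group leaned the same way as the cluster genes. The median length was 619 bases in the replication-dependent rows and 2955 bases over all genes tested, and the median GC content was 56.8% and 49.2%. Of the 1969 tested genes shorter than 1000 bases, 1263 were higher in Id2Δ/Δ, with a median log2 fold change of 0.13. Both Id2Δ/Δ libraries lay above both controls in 600 of these short genes, against 19.0% of all genes tested. They lay below in 208, against 15.8%. Within the 26 tested replication-dependent rows the median log2 fold change was 0.48 as deposited, 0.41 after a correction for transcript length and 0.38 after one for length and GC content. The 9527 tested genes within the same range of levels had a median of 0.01. What length had to do with the libraries was not tested beyond this correction.

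The direction was also counted by how much of a transcript is shared with other genes. In the 26 replication-dependent rows with at most 50% of their 50-base windows in other genes, 21 were higher in Id2Δ/Δ and the median log2 fold change was 0.45. In the 16 rows with more than 50% shared windows, 15 were higher and the median was 0.64. Over all 19354 rows 52.3% were higher. Rows of the first group still share windows, 49.7% in Hist1h2bg, and the part of shared reads in the direction was not tested. The first group held nearly all of the summed level, at 190 and 225 CPM in Id2+/+ and 240.0 and 266 CPM in Id2Δ/Δ libraries.

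By position, the 32 Hist1 rows on chromosome 13 had 27 rows higher and a median log2 fold change of 0.50. The 7 Hist2 rows on chromosome 3 had 6 rows higher and a median of 0.54. Both Hist3 rows, Hist3h2a and Hist3h2ba on chromosome 11, were higher, and so was the single Hist4 row, Hist4h4 on chromosome 6. The direction was therefore not limited to 1 chromosome.

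Several H2A and H2B genes face away from each other across a shared promoter, and 1 such pair is shown because its members differed in the order of their libraries. Hist1h2ae and Hist1h2bg are separated by 175 bases at chr13:23571221-23571395 of GRCm38. Capitals in its plus strand mark CCAAT on either strand and TATAAA.
Hist1h2ae-Hist1h2bg: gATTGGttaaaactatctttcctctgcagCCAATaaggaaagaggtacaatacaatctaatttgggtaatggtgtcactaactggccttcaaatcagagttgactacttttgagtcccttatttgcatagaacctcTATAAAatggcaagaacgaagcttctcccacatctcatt
Hist1h2ae differed by 0.65 in log2, as given above. Hist1h2bg had 283 and 333 reads in Id2+/+ and 245 and 504 reads in Id2Δ/Δ libraries, a difference of -0.13 (SE 0.32) with overlapping genotypes, which ran from -0.60 to 0.35 when 1 library was left out. Id2Δ/Δ replicate 1 was the highest library for the first gene and the lowest for the second, although their mean levels were alike at 20.6 and 20.4 CPM. Of 5 pairs less than 1000 bases apart, the other 4 had the same sign in both genes with all libraries included. The pair Hist1h2ac and Hist1h2bc was lower and the other 3 pairs were higher in Id2Δ/Δ. Both genes reached a mean of 1 CPM in only 3 of the 5 pairs. In the pairs Hist1h2ag with Hist1h2bj and Hist1h2ak with Hist1h2bn, the signs rest on low rows. Hist1h2ag, Hist1h2ak and Hist1h2bn had 1 to 9 reads a library.

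Promoter letters were counted too, with no test over so few variant promoters. In RefSeq windows of 250 bases before to 50 bases after the start, on GRCm38.p6 and with both strands read, CCAAT stood in 34 of the 37 replication-dependent promoters matched, in 5 of 8 variant promoters and in 37.4% of all 32851 promoters. TATAAA stood in 19 of 37, in 0 of 8 and in 13.6%. The E-box letters CANNTG, which E proteins bind when ID proteins do not hold them back, stood in 23 of 37, in 4 of 8 and in 72.3%. These counts describe the windows and are not binding sites.

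Genes that transcribe, process and deliver histones were near level as a group. Of 63 such genes tested, 37 were higher and 26 lower in Id2Δ/Δ, with a median log2 fold change of 0.05. Both Id2Δ/Δ libraries lay above both controls in 16 genes, against 19.0% of all genes tested, and below in 9, against 15.8%. Slbp, whose product binds the stem-loop, had 6.86 and 6.85 log2 CPM in Id2+/+ and 7.06 and 7.01 log2 CPM in Id2Δ/Δ libraries, a difference of 0.18 (SE 0.12). Npat, the coactivator of the histone clusters, had 6.48 and 6.28 log2 CPM in Id2+/+ and 6.02 and 6.21 log2 CPM in Id2Δ/Δ libraries, a difference of -0.26 (SE 0.15). These differences had opposite signs, each without overlap, and neither passed the test.

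Casp8ap2, which encodes the FLASH protein of the histone locus body, differed by -0.07 (SE 0.19). Lsm10, a subunit of the U7 particle that cuts histone pre-mRNA, had 4.68 and 4.49 log2 CPM in Id2+/+ and 5.20 and 4.98 log2 CPM in Id2Δ/Δ libraries. Its log2 fold change of 0.50 (SE 0.19) had an unadjusted p-value of 0.033 and an adjusted p-value of 0.910 in limma. It was 1 of 63 with an unadjusted p-value under 0.05, a share below the 4.67% over all genes. Of the 14 genes of 3′ end processing 11 were higher, with a median of 0.11. Of the 7 chaperones of H3.3, 2 were higher, with a median of -0.12 and the lowest value, -0.52, in Hira. The 12 chaperones of H3 and H4 at the replication fork had a median of 0.06.

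Genes of S phase, when cluster histones are made, leaned the same way by less. Of 38 tested, 31 were higher in Id2Δ/Δ, against 51.7% of all genes tested, with a median log2 fold change of 0.11. Both Id2Δ/Δ libraries lay above both controls in 11, against 19.0%, and below in 1, against 15.8%. Their median deviation was -0.13 in Id2+/+ replicate 1, 0.04 in Id2+/+ replicate 2, 0.02 in Id2Δ/Δ replicate 1 and 0.10 in Id2Δ/Δ replicate 2. By this measure the genotypes overlapped. So did the summed levels, at 4488 and 5021 CPM in Id2+/+ and 4959 and 5194 CPM in Id2Δ/Δ libraries. Id2+/+ replicate 1 was thus the lowest library for these genes as for the cluster histones, and its part in the histone values was not tested beyond leaving it out.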

How the data were processed

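RNA-Seq of sorted HSCs was analysed for 2 Id2+/+ and 2 Id2Δ/Δ libraries. The authors deposited log2 CPM values, quantile-normalized, for 19354 genes in 4 columns. Neither unit nor normalization is named in the sources used here, and both were read from the values. The submitters' processing notes name CASAVA 1.8.4, Trimmomatic 0.30, TopHat2 2.0.8, RSEM, STAR, mm9 and NCBIM37, without role or order. How reads of near-identical genes were assigned, and strand use, are not given in the sources used here.

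Below 32 CPM the order of distinct values gives whole reads, from which depth was estimated. Reads above that level are not recovered, so no count model was run. Such limits cover counting error only. Rows averaging 1 CPM or more (15895) were tested on the log2 scale, without a pseudocount, with limma 3.58.1 in R 4.3.3 (lmFit, eBayes with an intensity trend, genotype only, two-sided, Benjamini-Hochberg over all genes tested). The script was tested on simulated data. Counts and medians over lists carry no test. Values for all 42 replication-dependent rows use no filter.

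Transcripts, positions and lengths (longest transcript) come from GENCODE M21 on GRCm38, matched by identifier for 99.7% of genes, of which 82.0% of the table carry the same version. Hist1h2bm was matched by symbol. The authors' own build may differ, so no position was taken from the deposited values. Promoters come from RefSeq. Named in full are the 5 most abundant genes of each class, members with an unadjusted p-value under 0.05, and the 3 largest non-overlapping differences in each direction. Of the last, none was lower. Slbp, Npat, Casp8ap2 and supply genes with an unadjusted p-value under 0.05 are named too, and others were chosen after their values were seen. The members and lists were chosen with earlier results of these data known. Alternatives varied the pseudocount, scaling, filter, trend, threshold, replicate block, length and GC correction, and the libraries included.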

Additional observations from a re-analysis of the deposited data

How the results depend on the processing

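No histone row reached an adjusted p-value under 0.05 in limma under any alternative tried. Over all genes, 742 were called at an unadjusted p-value under 0.05 (2 histone rows) and 409 with a change of at least 1.5-fold added (1 histone row). The deviations of same-numbered libraries correlated at 0.0592 over genes. With 2 libraries a group this cannot show whether the replicate numbers pair the samples, and the labels do not say. With the replicate block 1 gene was called, and 3 with the block and a length and GC correction, none of them a histone row. The median log2 fold change of the 26 tested replication-dependent rows, 0.48, went to 0.33 with a pseudocount of 1, to 0.17 with 5 and to 0.23 in the 7 rows with a mean of at least 10 CPM. Leaving out 1 library gave 0.27 (without Id2Δ/Δ replicate 2) to 0.46. For all 42 rows, an alternative chosen after seeing the data, it gave 0.27 to 0.73, with 32 to 39 rows higher. The median of the variants, 0.15, was 0.091 at 10 CPM or more and 0.11 to 0.22 without 1 library. That of the supply genes, 0.05, was 0.064 with the length correction, 0.077 with length and GC, with or without the block, and 0.018 (without Id2+/+ replicate 1) to 0.067 without 1 library. The summed ratio was 1.15 to 1.34 for replication-dependent rows without 1 library. That of the variants turned to 0.992 under median-ratio rescaling and ran from 0.947 to 1.05 without 1 library. Signs of log2 fold changes turned in H1f0 (-0.093 without Id2+/+ replicate 2, highest 0.27), in Hist1h2bc (-0.62 to 0.22), H3f3b (-0.31 to 0.067) and H2afy (-0.017 to 0.12), each by leaving out Id2Δ/Δ replicate 1, and in Hist1h1c (-0.045 without Id2Δ/Δ replicate 2, highest 0.50). Among the other members they also turned in Hist1h2bg (-0.60 to 0.35), Hist2h2be (-0.074 to 0.73), Hist1h4h (-0.053 to 1.06), Hist1h1b (-0.22 to 0.14) and H2afj (-0.062 to 0.030). Other than in these leave-one-out fits, which hold fewer samples, the causes were not tested. Where 1 library is left, it is assumed to vary like the other group.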
